A study of Mus musculus with 40 samples.

Results

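Bone marrow-derived macrophages (BMDMs) from mice labelled CPEB4-KO and from WT mice were compared 9 hr after addition of 10 ng/ml LPS, a component of the outer membrane of Gram-negative bacteria. The comparison used 8 of the 40 RNA-seq libraries of the study, 4 for each genotype, and 13008 of the 27179 genes in the deposited table. These genes had a mean of at least log2 of 5 over the 8 libraries. The genes closest to this limit had means of 2.3208 (Gm5879) just outside it and 2.3224 (D6Ertd527e) just inside it, and 6395 genes of the table were listed at 0 in all 40 libraries. The CPEB4-KO mice carried a deletion of Cpeb4 in all tissues. All mice were male, adult and of a mixed C57BL/6J and 129 background, and both genotypes received the same L-cell conditioned medium, a source of M-CSF, during a week of differentiation and the same LPS. The WT libraries came from mice 25, 69, 87 and 88 and the CPEB4-KO libraries from mice 2, 3, 55 and 62, and values of single libraries are given below in this order of mice. Batch 1 held WT mice 25 and 88 and CPEB4-KO mice 3 and 62, and batch 2 held WT mice 69 and 87 and CPEB4-KO mice 2 and 55. No cage held mice of both genotypes, so cage and genotype cannot be told apart.

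CPEB4 is one of a family of 4 RNA-binding proteins that recognise cytoplasmic polyadenylation elements in mRNAs and set the length of their poly(A) tails. In LPS-treated macrophages, inflammatory transcripts rise early and are later cleared, in part through AU-rich elements bound by decay factors such as tristetraprolin (TTP, encoded by Zfp36). The same cells shift their metabolism toward glycolysis, in which the transcription factor HIF-1 takes part, and make the negative regulators that end the response. At 9 hr this late phase is under way, and the comparison asks which transcripts differ in it when CPEB4 is missing. Levels are given as rlog, a log2 scale corrected for library size on which values of weakly expressed genes are drawn together, so that fold changes of such genes are understated. A difference is CPEB4-KO minus WT on this scale, means are given with the SD of 4 libraries, and p-values are those of limma, adjusted by the Benjamini-Hochberg method over all 13008 genes. A gene was called at an adjusted p under 0.05.

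The library of CPEB4-KO mouse 2 stood apart from the other 7. The first principal component separated the genotypes and placed this library at −3.16, between the other CPEB4-KO libraries (10.9 to 23.5) and the WT libraries (−16.5 to −6.58). On the second component it stood alone at −24.2. It was the library far from the rest of its group in 4.49% of genes, against 0.515% to 1.78% for the other 7 libraries. Results are therefore also given without it.

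**Figure D1:**
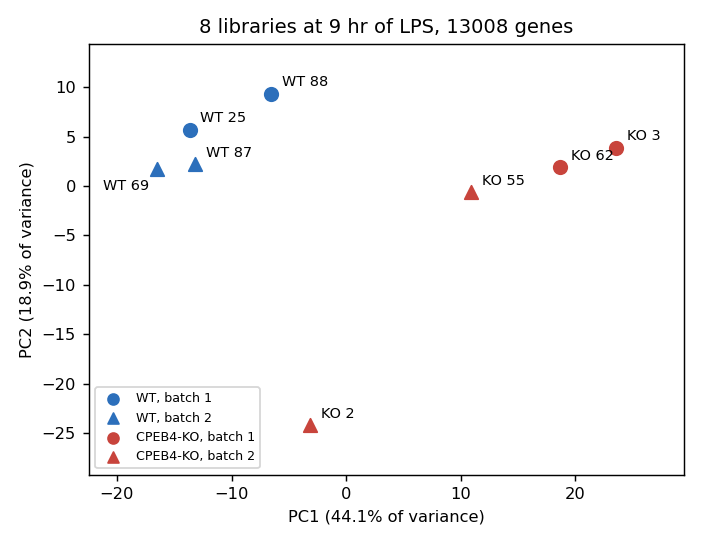
Principal components of the 8 libraries at 9 hr of LPS over 13008 genes. The horizontal axis is component 1 (44.1% of variance) and the vertical axis component 2 (18.9%), in rlog units; colour marks genotype and symbol marks batch, and CPEB4-KO mouse 2 lies alone at the bottom.

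The table sums reads over the whole gene, so transcript that a deleted allele still makes cannot be told apart from intact Cpeb4. Cpeb4 stood at 8.97, 8.94, 8.89 and 9.41 in the WT libraries and at 7.87, 9.27, 8.83 and 9.02 in the libraries labelled CPEB4-KO. Its level was below every WT library in mice 2 and 55 and within the WT range in mice 3 and 62. The means were 9.05 ± 0.24 and 8.75 ± 0.62, a difference of −0.31 that was not larger than the spread (two-sided exact permutation test, p = 0.43, n = 4 against 4; the smallest p this design allows is 0.029). Within batches the difference was −0.042 in batch 1 and −0.57 in batch 2. The transcript level at 9 hr therefore does not check the labels of these libraries, and "CPEB4-KO" below stands for libraries labelled so. In the 6 hr libraries of the same mice Cpeb4 stood at 10.42, 10.67, 10.09 and 10.62 in WT and at 8.87, 9.45, 9.66 and 8.74 in CPEB4-KO, with separate groups and a difference of −1.27 (two-sided exact permutation test, p = 0.029), so at that time the level ran the way the labels say. At 0, 1 and 3 hr the groups overlapped for Cpeb4, with differences of −0.24, 0.37 and −0.55 (two-sided exact permutation test, p = 0.43, 0.49 and 0.34). The level therefore followed the labels clearly at 6 hr only. The other family members Cpeb2 and Cpeb3 encode proteins that bind similar elements, and both were higher at 9 hr. Cpeb2 rose from 9.98 ± 0.09 to 10.63 ± 0.21 (adjusted p = 0.0047) and Cpeb3 from 7.40, 7.38, 7.40 and 7.44 to 7.91, 8.26, 8.02 and 8.12 (difference 0.68, SE 0.08, adjusted p = 0.0020). No library of one genotype reached the other for either gene. Cpeb1 stood at 3.80 ± 0.28 and 4.32 ± 0.21 (adjusted p = 0.078).

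The libraries were checked for the cell types such cultures can hold. All 12 macrophage markers were expressed, led by Lyz2 at 18.1. Their summed level (log2) was 19.46 to 19.52 in WT and 19.24 to 19.38 in CPEB4-KO libraries. Of these markers 4 were called lower (33.3%, against 3.22% of all tested genes) and none higher. The Fc receptor Fcgr1 and the myeloid transcription factor Spi1 were among the 4. Leaving out CPEB4-KO mouse 2 gave 6 lower (50%, against 16.8%) and 2 higher (16.7%, against 18.4%). Markers of osteoclasts, which share their precursor with macrophages, had a summed level of 11.26 to 11.41 in WT and 11.64 to 11.74 in CPEB4-KO. Of 7 tested members 3 were higher (42.9%, against 4.69% of all tested genes). Neutrophil markers summed to 8.72 to 8.99 and 9.16 to 9.41, with only the collagenase Mmp8 called, as higher, among 6 tested of 12 (16.7%), and stromal markers to 8.13 to 8.48 and 8.58 to 9.15. Dendritic cell and B cell markers overlapped between genotypes, T and NK cell markers did not (7.22 to 7.42 and 6.81 to 7.14), and the mast cell genes Mcpt4, Cma1 and Tpsb2 and the globin genes Hba-a1 and Hbb-bs were listed at 0. The part of these cells in the results was not tested, and in such bulk samples fewer cells of a type and less RNA per cell cannot be told apart.

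At 9 hr 1029 genes differed between the genotypes, 610 of them higher in CPEB4-KO and 419 lower. These are 7.91% of the genes tested, 4.69% higher and 3.22% lower. These shares are the background for the counts of called genes in the lists below. Most differences were small: the median absolute difference was 0.37 among called genes and 0.12 among all tested genes, 718 of the called genes (69.8%) differed by less than 0.5, and differences of at least 1 were seen for 29 genes that rose and 13 that fell. In 982 called genes the groups did not overlap, with all CPEB4-KO values above or below all WT values, which was so for 2193 genes in all (16.9% of those tested). All 1029 genes had the same sign in both batches. CPEB4-KO libraries spread more than WT libraries (median SD 0.136 against 0.089).

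The number of calls rested on single libraries. Without CPEB4-KO mouse 2, 4578 genes were called (35.2%; 2396 higher, 18.4%, and 2182 lower, 16.8%), with all 1029 among them. Leaving out WT mouse 25, 69 or 87 gave 387, 457 or 415 calls, and leaving out CPEB4-KO mouse 3, 55 or 62 gave 513, 572 or 456. In one fit of all 40 libraries with the mouse as a block, 2395 genes were called at 9 hr, 1013 of the 1029 among them. Across 18 alternative analyses, 327 genes were called in every one in which they were tested, 223 higher and 104 lower. These are given first in the groups below, and "every alternative" has this sense throughout.

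**Figure D2:**
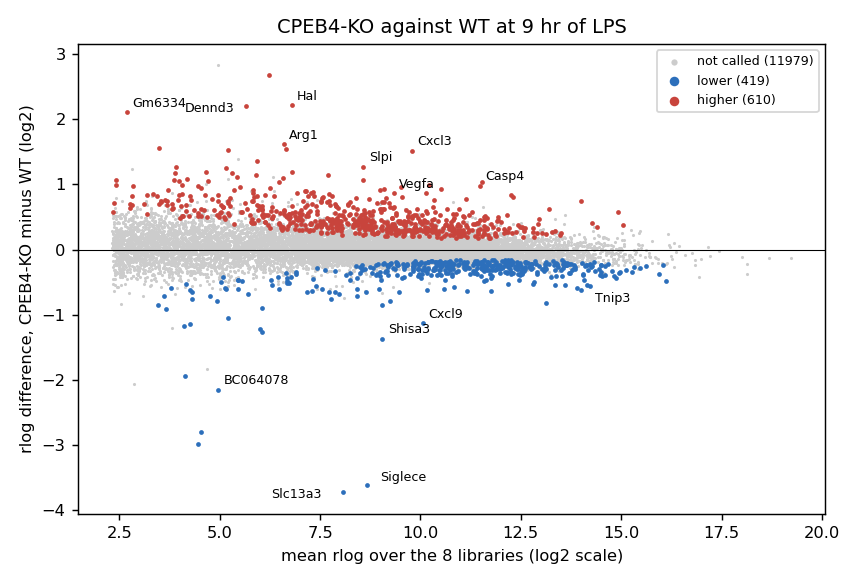
Difference in rlog (CPEB4-KO minus WT, vertical axis, log2) against the mean rlog of the 8 libraries (horizontal axis) for 13008 genes. Red points are the 610 genes called higher, blue points the 419 called lower and gray points those not called; Slc13a3 and Siglece lie lowest, while most called genes lie within 0.5 of 0.

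Called genes were compared with the LPS response of the same cells up to 6 hr, which used other libraries from the same mice. Of the 419 lower genes, 76.4% had been induced and 11.9% repressed between 0 and 6 hr in WT cells, against 41.1% and 41.0% of all tested genes. Of the 610 higher genes, 31.1% had been induced and 56.4% repressed. In the course of the CPEB4-KO cells themselves these shares were 73.5% and 15.04% for the lower genes and 33.6% and 53.0% for the higher genes. With the larger set called without CPEB4-KO mouse 2 the pattern was not seen, as 49.4% of the higher and 45.9% of the lower genes had been induced in WT and 35.1% and 34.6% repressed. At 6 hr 285 of the 610 higher genes (46.7%) and 274 of the 419 lower genes (65.4%) were called in the same direction, where 6.47% of all genes were called higher and 10% lower. Before LPS 49 (8.03%) and 27 (6.44%) were, where few genes were called at all (0.741% higher and 0.538% lower). The sign was the same before LPS in 85.7% of the higher and 85.4% of the lower genes, against 51.7% of all genes positive and 48.3% negative, with median differences of 0.14 and −0.087.

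Slc13a3 and Siglece showed the largest falls. The 12 largest falls and the 12 largest rises were picked among called genes with separate groups, so separation was a condition of their choice. Slc13a3 encodes a sodium-coupled transporter of dicarboxylates (chr2:165405295-165473197, mm10). Its level was 9.87, 10.32, 9.94 and 9.64 in WT and 6.09, 6.17, 6.35 and 6.24 in CPEB4-KO. The difference was −3.73 (SE 0.13, adjusted p = 2.1e-07), 13.2-fold on the linear scale. Siglece encodes an inhibitory receptor that binds sialic acid on neutrophils and macrophages (chr7:43648882-43672044). It stood at 10.59, 10.02, 10.80 and 10.51 in WT and at 6.91, 6.83, 6.92 and 6.81 in CPEB4-KO, a difference of −3.61 (SE 0.14, adjusted p = 3.1e-07). For both genes the groups lay several log2 units apart, and both already differed before LPS (−2.04 and −2.27).

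Among the other large falls, 3 genes lay next to each other on chromosome 6, in a region rich in receptor genes of the natural killer cell and C-type lectin families. BC064078 (chr6:128992961-129006647) stood at 5.95, 6.03, 6.13 and 6.05 in WT and at 3.67, 4.03, 3.83 and 4.03 in CPEB4-KO (difference −2.15, adjusted p = 7.3e-06). Gm15987 and BC035044, its neighbours, fell by 1.26 and 1.05. All 3 were also lower at 6 hr. In the 5 Mb of chromosome 6 from 125 to 130 Mb 13 of 51 tested genes (25.5%) were called, and in the 5 Mb of chromosome 2 from 165 to 170 Mb, which holds Slc13a3, 12 of 36 (33.3%). Over all tested genes 7.91% were called. Some other segments of this size with fewer tested genes had higher shares, such as chromosome 15 from 70 to 75 Mb (5 of 14, 35.7%) and chromosome 4 from 80 to 85 Mb (4 of 6, 66.7%). By chromosome the share of called genes ran from 3.91% on X to 12.3% on chromosome 6, and within 5 Mb of Cpeb4 itself 2 of 32 genes were called (6.25%).

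Cxcl9, a chemokine that attracts activated T cells through CXCR3, stood at 10.53, 10.93, 10.38 and 10.62 in WT and at 9.32, 9.30, 9.95 and 9.39 in CPEB4-KO (difference −1.13, SE 0.15, adjusted p = 0.0031). Shisa3, whose product retains Wnt and FGF receptors inside the cell, fell from 9.74 ± 0.35 to 8.37 ± 0.28 (adjusted p = 0.0023). The groups did not overlap for either gene, as the choice of the largest falls required. Lta, which encodes lymphotoxin alpha, fell by 1.14 (adjusted p = 0.0079), Plbd1, a phospholipase B-like protein, by 1.22 (adjusted p = 0.0020), and Urah, an enzyme of urate breakdown, by 1.18 (adjusted p = 0.0081). The Fc receptor-like gene Fcrl5 fell by 0.92 and Il19, an IL-10 family cytokine, by 0.89. Of these, Il19 lost its call in 2 of the 18 alternatives and the others in none.

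Enzymes, protease inhibitors and a neutrophil chemokine were among the largest rises. Arg1 encodes arginase 1, which splits arginine into ornithine and urea and competes with nitric oxide synthase for it. Its level was 5.53, 5.82, 5.79 and 5.98 in WT and 7.42, 7.70, 6.94 and 7.51 in CPEB4-KO. The lowest CPEB4-KO library was above every WT library, and the difference was 1.61 (SE 0.16, adjusted p = 6.8e-04), 3.06-fold. Before LPS the difference was −0.18 (adjusted p = 0.63). Hal, which encodes histidine ammonia-lyase, the first enzyme of histidine breakdown, stood at 6.32, 5.05, 6.33 and 5.01 in WT and at 8.30, 8.16, 7.19 and 7.94 in CPEB4-KO (difference 2.22, SE 0.34, adjusted p = 0.0060). Its difference was 2.86 before LPS (adjusted p = 0.068). Cxcl3, a CXCR2 ligand that attracts neutrophils, stood at 8.81, 9.72, 8.91 and 8.66 in WT and at 10.47, 11.21, 10.38 and 10.11 in CPEB4-KO (difference 1.51, SE 0.26, adjusted p = 0.0081). In each of these 3 genes the groups were separate, as the choice of the largest rises required, although WT libraries of Hal differed among themselves by over 1.

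Slpi, a secreted inhibitor of neutrophil elastase, rose from 7.94 ± 0.31 to 9.21 ± 0.14 (adjusted p = 0.0013), and Spint1, an inhibitor of serine proteases at the cell surface, from 4.44 ± 0.26 to 5.96 ± 0.40 (adjusted p = 0.0026). Dennd3, an activator of the small GTPase Rab12, stood at 3.74, 5.90, 4.17 and 4.40 in WT and at 6.53, 7.05, 6.50 and 6.93 in CPEB4-KO (difference 2.20, adjusted p = 0.0084). WT mouse 69 was the WT library closest to CPEB4-KO for this gene. Further rises were those of Tnfaip8l3 (1.56), a carrier of phosphoinositides, the acid phosphatase Acpp (1.55), the netrin receptor Neo1 (1.26) and the guanine nucleotide exchange factor Arhgef40 (1.26). All of these kept their call in every alternative.

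**Figure D3:**
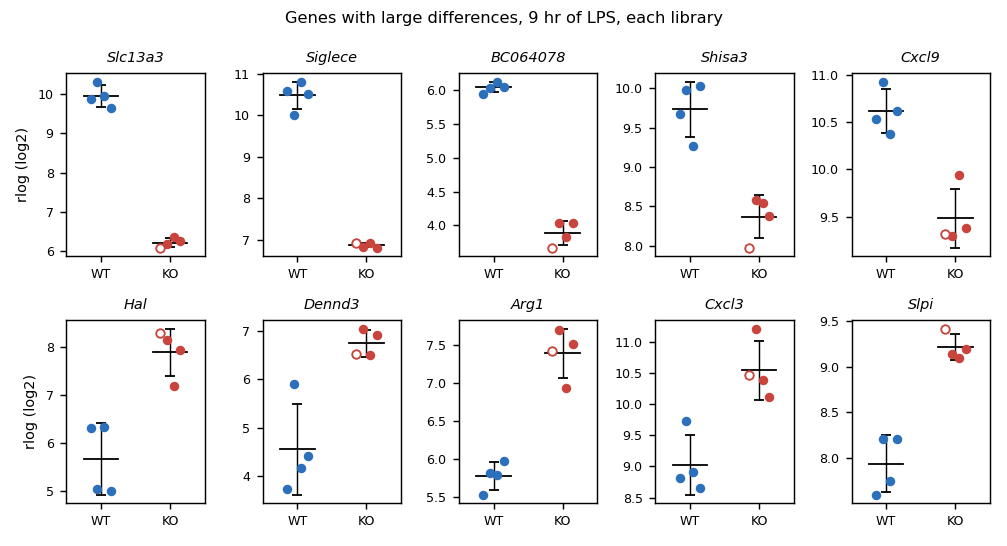
Level of 10 genes with large differences in each library at 9 hr (rlog, log2 scale, vertical axis; each panel has its own range and does not start at 0). Points are libraries, the open circle is CPEB4-KO mouse 2, and lines show the mean and SD of 4 libraries. In every panel the CPEB4-KO and WT points do not overlap, which was a condition for choosing these genes.

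Other large differences were uncertain. Gm6334 (1.64 ± 0.03 in WT and 3.75 ± 0.27 in CPEB4-KO) is a pseudogene and passed the expression filter only through the CPEB4-KO libraries, as did 4 other called genes of which the WT mean lay under the limit. 1700071M16Rik (difference 1.36) lies inside Pla2g7, which also rose, and the library kit does not mark strand, so their reads cannot be told apart. Bcl2a1a, one of several near-identical copies of an anti-apoptotic gene, stood at 4.12, 4.25, 3.82 and 7.39 in WT and at 7.69, 7.64, 7.59 and 7.39 in CPEB4-KO (adjusted p = 0.030). Its WT library of mouse 88 lay at the level of CPEB4-KO, and the call was lost in 7 alternatives. Plekha7 and the pseudogenes Rps15a-ps8 and Gm5801, noticed after their values were seen, were called lower although the groups overlapped. Plekha7, which encodes a junction protein, stood at 7.26, 6.89, 3.17 and 6.46 in WT and at 3.10, 3.52, 2.91 and 3.05 in CPEB4-KO (adjusted p = 0.041). Rps15a-ps8 stood at 6.80, 7.18, 3.12 and 6.73 in WT and at 2.84 to 3.14 in CPEB4-KO, so in both genes WT mouse 87 lay at the CPEB4-KO level. Gm5801 stood at 3.24 in WT mouse 25, 5.61 to 5.95 in the other WT libraries and 2.83 to 3.48 in CPEB4-KO.

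Genes controlled by hypoxia-inducible factors (HIFs) were among the groups with many calls. HIF binds hypoxia response elements with the core ACGTG, and its targets include genes of oxygen sensing, blood vessel growth and glucose use. Of 30 tested HIF targets outside glycolysis, 14 were higher (46.7%) and 1 lower, with a median difference of 0.33, against 4.69% higher, 3.22% lower and a median of 0.0044 over all tested genes. Without CPEB4-KO mouse 2, 18 were higher (60%, against 18.4% of all genes) and 3 lower (10%, against 16.8%), and 8 were called higher in every alternative. The median was −0.0065 before LPS and 0.14 at 6 hr, and 0.25 to 0.39 over the alternatives at 9 hr. The promoters of such genes are shown because the motif marks the gene group. Windows are from RefSeq sequence of GRCm38.p6 within 250 bases before an annotated start, printed along the gene's strand in the 5′ to 3′ direction, with the letters ACGTG or their reverse complement CACGT in capitals.
Mxi1, chr19:53329319-53329379, + strand: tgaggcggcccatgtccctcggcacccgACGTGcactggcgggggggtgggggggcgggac
Ero1l, chr14:45318603-45318663, − strand: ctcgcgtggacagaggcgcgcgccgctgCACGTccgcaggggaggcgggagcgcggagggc
Egln3, chr12:54204071-54204124, − strand: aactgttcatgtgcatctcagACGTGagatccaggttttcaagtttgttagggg
Hk2, chr6:82774474-82774534, − strand: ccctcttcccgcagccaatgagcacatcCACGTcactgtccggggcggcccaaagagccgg
Hk2, chr6:82774648-82774704, − strand: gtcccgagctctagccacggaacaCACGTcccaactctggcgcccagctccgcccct
The Mxi1 window belongs to an inner start, 19.2 kb inside the gene as GENCODE places it, and Mxi1 has 3 starts in the table. The other windows lie before the outermost start. Counting a gene once if any of its starts had them, these letters stood on either strand in 18 of the 23 tested HIF targets with a promoter in the table (78.3%), in 11 of the 12 of them that were called higher (91.7%), in 12 of 23 glycolysis genes (52.2%) and in 4 of the 8 of those called higher (50%). Over all tested genes with a promoter they stood in 2523 of 10071 (25.1%), and in 116 of 462 called higher (25.1%) and 71 of 345 called lower (20.6%). The motif is also contained in the longer E-box CACGTG, and a match is not evidence of binding.

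Mxi1 encodes an antagonist of MYC. It stood at 7.84, 8.06, 7.78 and 8.29 in WT and at 8.72, 8.80, 8.62 and 9.01 in CPEB4-KO (difference 0.80, SE 0.12, adjusted p = 0.0051). Vegfa, the growth factor of blood vessels, stood at 8.63, 9.18, 8.71 and 9.08 in WT and at 9.72, 9.54, 9.71 and 10.09 in CPEB4-KO (difference 0.87, SE 0.14, adjusted p = 0.0070). In both genes every CPEB4-KO library was above every WT library. Ak4, a mitochondrial adenylate kinase, rose by 0.73 (adjusted p = 0.0016), Bhlhe40, a transcriptional repressor, by 0.67 (adjusted p = 0.0047), and Ero1l, an oxidase that forms disulfide bonds in the endoplasmic reticulum, by 0.59 (adjusted p = 0.0082). All 5 were called in every alternative.

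The oxygen sensors themselves differed in direction. Egln1 and Egln3 encode prolyl hydroxylases that mark HIF subunits for destruction and are also HIF targets, and both were higher (0.46, adjusted p = 0.0034, and 0.89, adjusted p = 0.024), whereas the third hydroxylase, Egln2, was lower (−0.28, adjusted p = 0.044). Egln1 kept its call in every alternative, and Egln3 and Egln2 lost it in 4 and 10 of 18. Hif1a, which encodes the HIF-1 subunit that oxygen regulates, stood at 12.96, 13.12, 13.07 and 13.29 in WT and at 13.11, 13.79, 13.61 and 13.80 in CPEB4-KO. It was high in 3 CPEB4-KO libraries, while mouse 2 lay within the WT range, and the difference of 0.47 was not called (adjusted p = 0.063). Without mouse 2 it was 0.63 (adjusted p = 7.2e-04).

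Glycolysis and glucose uptake, with 24 tested genes, had 8 higher (33.3%, against 4.69% of all genes) and 1 lower (4.17%, against 3.22%) and a median of 0.20. Pdk1, the kinase that shuts pyruvate dehydrogenase and so keeps pyruvate out of the mitochondrion, stood at 10.47, 10.45, 10.58 and 10.60 in WT and at 11.09, 11.01, 11.04 and 11.16 in CPEB4-KO (difference 0.55, SE 0.06, adjusted p = 8.2e-04). Hk2, the inducible hexokinase that traps glucose in the cell, rose from 11.79 ± 0.10 to 12.20 ± 0.12 (adjusted p = 0.0076). These 2 were called in every alternative. The glucose transporter Slc2a1 rose by 0.53 (adjusted p = 0.015) and the glycolytic enzymes Gpi1 and Pfkl by 0.27 and 0.33 (adjusted p = 0.025 and 0.035), with the call lost in 2, 5 and 7 alternatives. Slc2a6, a transporter of the same family, fell by 0.33 (adjusted p = 0.019) and was the only member called lower. Gapdh, often used as a reference gene, stood at 10.13 ± 0.08 and 10.36 ± 0.24 (adjusted p = 0.18), and at a difference of 0.35 without CPEB4-KO mouse 2 (adjusted p = 0.0014).

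**Figure D4:**
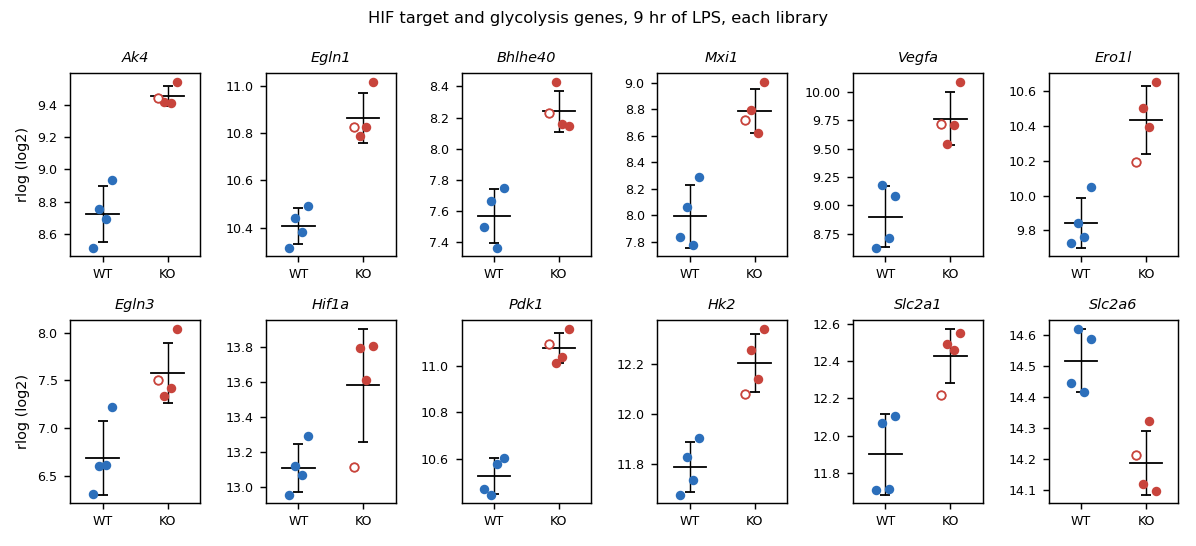
Level of 12 HIF target and glycolysis genes in each library at 9 hr (rlog, log2 scale, vertical axis; each panel has its own range and does not start at 0). Points are libraries, the open circle is CPEB4-KO mouse 2, and lines show the mean and SD of 4 libraries; Hif1a is the panel in which mouse 2 lies among the WT points and Slc2a6 the one in which CPEB4-KO is lower.

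Other metabolic groups held smaller differences. In the TCA cycle and itaconate group 5 of 23 genes were higher (21.7%, against 4.69% of all genes) and none lower, and the median difference was 0.0043. Leaving out CPEB4-KO mouse 2 gave 7 higher (30.4%, against 18.4% of all genes) and 6 lower (26.1%, against 16.8%). The isocitrate dehydrogenases Idh1 and Idh2 rose by 0.34 and 0.36 (adjusted p = 0.0044 and 0.014) and Suclg2, a subunit of succinate-CoA ligase, by 0.54 (adjusted p = 0.0051), all 3 in every alternative. Malic enzymes Me1 and Me2 rose by 0.26 each. Among 27 NRF2 targets and antioxidant enzymes 5 were higher (18.5%) and none lower (median 0.11). With CPEB4-KO mouse 2 left out, 9 were higher (33.3%, against 18.4%) and 4 lower (14.8%, against 16.8%). The metal-binding protein gene Mt2 stood at 11.74, 12.22, 11.75 and 11.88 in WT and at 12.91, 12.70, 12.60 and 12.63 in CPEB4-KO (difference 0.81, adjusted p = 0.0027). Cat, which encodes catalase, rose by 0.46 (adjusted p = 0.012), and the glutathione genes Gsr and Gclm by 0.22 and 0.51 (adjusted p = 0.016 and 0.027). Mt2 and Cat were called in every alternative. Ass1, which recycles citrulline to arginine, rose by 0.76 (adjusted p = 0.020).

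In the lists of lipid metabolism all genes called with all 8 libraries were higher. Cholesterol synthesis had 4 of 21 genes higher and LXR targets 3 of 15, with none lower in either group and medians of 0.15 and 0.14. With CPEB4-KO mouse 2 left out, 8 were higher in each (38.1% and 53.3%, against 18.4% of all genes). None of the first and 2 of the second (13.3%, against 16.8%) were then lower. The transcription factors Srebf1 and Srebf2, which switch on fatty acid and sterol synthesis, rose by 0.25 and 0.29 (adjusted p = 0.0099 and 0.011). The stearoyl-CoA desaturases Scd1 and Scd2 rose by 0.79 and 0.63 (adjusted p = 0.010 and 0.0066). These 4 were called in every alternative, whereas Idi1, an isomerase of the sterol pathway, lost its call in 11. Of 16 listed genes of the prostaglandin and leukotriene pathway 4 were higher (25%, against 4.69% of all genes) and none lower. Leaving out CPEB4-KO mouse 2 gave 5 higher (31.25%, against 18.4%) and 3 lower (18.75%, against 16.8%). Hpgds, a prostaglandin D synthase gene that is not on the list and lies outside the rule for naming genes, was called lower. Pla2g7, which degrades platelet-activating factor, stood at 11.67, 12.002, 11.67 and 11.97 in WT and at 12.71, 12.78, 12.59 and 12.58 in CPEB4-KO (difference 0.84, SE 0.09, adjusted p = 0.0010). The leukotriene receptor Ltb4r1, the thromboxane synthase Tbxas1 and the prostaglandin receptor Ptger2 rose by 0.70, 0.21 and 0.42 (adjusted p = 0.027, 0.039 and 0.047) and lost their call in 5, 9 and 10 alternatives.

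Inflammatory cytokines did not move one way. Of 21 listed, 1 was higher (4.76%) and 2 were lower (9.52%), against 4.69% and 3.22% of all genes, and the median was −0.0037. Lta and Il19, described above, are not on this list and were called lower. Il12a, the p35 subunit of IL-12, rose from 4.88 ± 0.34 to 5.99 ± 0.45 (adjusted p = 0.017), while Ebi3, the partner subunit in IL-27 and IL-35, fell from 12.43, 12.45, 12.52 and 12.33 to 11.91, 11.85, 12.05 and 11.83 (difference −0.52, adjusted p = 0.0017). Tnf stood at 14.35, 14.56, 14.19 and 14.11 in WT and at 13.92, 13.94, 13.89 and 13.61 in CPEB4-KO (difference −0.46, adjusted p = 0.024). Its groups were separate, and the call was lost in 6 alternatives. Il6, Il1b and Il1a were not called, with differences of 0.43, −0.22 and 0.02 (adjusted p = 0.21, 0.31 and 0.97), and their groups overlapped. Il6 was called higher without CPEB4-KO mouse 2 (0.55, adjusted p = 0.049). Of the anti-inflammatory Il10 the difference was −0.21 (9.15 ± 0.20 and 8.94 ± 0.14, adjusted p = 0.22) and of the IL-1 receptor antagonist Il1rn −0.23 (adjusted p = 0.094).

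Of 19 listed chemokines 4 were lower (21.1%) and 1, Cxcl3, was higher (5.26%), against 3.22% and 4.69% of all genes (median −0.10). Ccl3 and Ccl4, chemokines that attract monocytes and T cells, both fell. Ccl4 stood at 14.35, 14.50, 14.31 and 14.03 in WT and at 13.72, 13.65, 13.83 and 13.53 in CPEB4-KO (difference −0.62, SE 0.10, adjusted p = 0.0061), and Ccl3 fell by 0.60 (adjusted p = 0.014). The annotation gives them overlapping coordinates, so they may share reads. Ccl12, a monocyte chemokine, fell by 0.62 (adjusted p = 0.020). The CXCR2 ligands differed among themselves, as Cxcl3 rose, Cxcl1 was at 9.73 ± 0.17 and 10.18 ± 0.29 (adjusted p = 0.063) and Cxcl2 at 12.87 ± 0.31 and 12.85 ± 0.18 (adjusted p = 0.96). Ppbp, a further CXCR2 ligand gene that is not on this list and lies outside the rule for naming genes, was also called higher. Cxcl1 was called higher without CPEB4-KO mouse 2 (0.35, adjusted p = 0.035). Among receptors, Cxcr4 for CXCL12 and Cmklr1 for chemerin rose by 0.75 and 0.55 (adjusted p = 0.0092 and 0.019), and the formyl peptide receptor Fpr2 fell by 0.37 (adjusted p = 0.013).

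Of 30 negative regulators of the LPS response 2 were higher (6.67%, near the 4.69% of all genes) and 4 lower (13.3%, against 3.22%). The median was −0.074. Tnip3, which works with A20 to restrain NF-kB, stood at 14.50, 14.60, 14.47 and 14.40 in WT and at 13.89, 13.93, 14.05 and 13.88 in CPEB4-KO (difference −0.56, SE 0.06, adjusted p = 0.0010), and Il4ra, the IL-4 receptor, fell by 0.40 (adjusted p = 0.0092). Txnip, an inhibitor of thioredoxin and of glucose uptake, rose by 0.33 (adjusted p = 0.0069). These 3 were called in every alternative. Tnip1 and Tgfb1 fell by 0.26 and 0.18, Socs1, a cytokine signalling inhibitor, rose by 0.32 (adjusted p = 0.028), and these lost their call in 4, 9 and 7 alternatives. Dusp1, Zfp36, Tnfaip3 and Socs3 had differences from −0.18 to −0.097 with adjusted p from 0.23 to 0.27, and their groups overlapped.

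With all 8 libraries, called genes in the list of Toll-like receptors and adaptors were all lower (3 of 21, 14.3%). So were those in the list of NF-kB subunits and regulators (3 of 14, 21.4%). Over all genes 3.22% were lower. Both lists were hand-written, and pathway genes outside these lists were not counted. When CPEB4-KO mouse 2 was left out, the Toll-like list had 4 higher and 4 lower (19.05% each), near the 18.4% and 16.8% of all genes. The NF-kB list then had 4 higher (28.6%) and 6 lower (42.9%), so the calls in both lists ran in both directions. Cd14, the LPS co-receptor, fell from 16.14 ± 0.14 to 15.76 ± 0.06 (adjusted p = 0.015), and Irak2, Ikbke, Nfkbib and Rela fell by 0.26, 0.25, 0.38 and 0.25. The calls of these 5 were lost in 2 to 7 alternatives. Irak4, a kinase of the same receptor pathway, fell by 0.30 (adjusted p = 0.049) and lost its call in 10 of 18. AP-1 and immediate early genes were 3 higher of 20 (15%, against 4.69% of all genes), with Fos up by 0.40 (adjusted p = 0.018), Egr2 by 0.57 and Egr3 by 0.70. Of 19 MAP kinases of the LPS cascade 2 were higher (10.5%) and 1 lower (5.26%). Map3k5, which responds to oxidative stress, rose by 0.72 (8.88, 8.88, 8.87 and 8.81 in WT and 9.38, 9.89, 9.50 and 9.55 in CPEB4-KO, adjusted p = 0.0027) and Mapk8, which encodes JNK1, by 0.37 (adjusted p = 0.0074), while Map2k4 fell by 0.22 (adjusted p = 0.047).

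Casp4 encodes a protease that senses LPS inside the cell and triggers pyroptosis. Its level was 10.99, 11.07, 10.96 and 10.97 in WT and 12.02, 12.02, 12.04 and 11.83 in CPEB4-KO (difference 0.98, SE 0.06, adjusted p = 1.7e-05). The groups were far apart and each was narrow, and the difference was 0.81 before LPS. Nlrp1b, an inflammasome sensor, rose by 0.41 (adjusted p = 0.0086). Of 16 inflammasome genes 3 were higher (18.75%, against 4.69% of all genes) and none lower. Leaving out CPEB4-KO mouse 2 gave 6 higher (37.5%, against 18.4%) and 2 lower (12.5%, against 16.8%). Of 21 apoptosis regulators 2 were higher (9.52%) and 2 lower (9.52%), against 4.69% and 3.22% of all genes. The pro-apoptotic Bcl2l11 rose by 0.29 (adjusted p = 0.0081) and the anti-apoptotic Bcl2l1 fell by 0.29 (adjusted p = 0.021). The other member called higher was the anti-apoptotic Bcl2a1a, whose uncertain values are given above.

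Interferon-stimulated genes were lower where called. Of 36, 4 were lower (11.1%) and none higher (median −0.087), and of 13 interferon-inducible GTPases 2 were lower (15.4%, median −0.14). Over all genes 3.22% were lower. Ifi44 stood at 11.83, 11.84, 11.90 and 11.88 in WT and at 11.16, 11.45, 11.66 and 11.33 in CPEB4-KO (difference −0.46, adjusted p = 0.014) and kept its call in every alternative. Isg15, a ubiquitin-like modifier, Usp18, which removes it, and the nucleic acid sensor Zbp1 fell by 0.38, 0.29 and 0.21 (adjusted p = 0.042, 0.027 and 0.047), as did the GTPases Igtp and Irgm1 by 0.22 and 0.18, and these 5 lost their call in 5 to 12 alternatives. Without CPEB4-KO mouse 2, 11 of the 36 genes were lower (30.6%, against 16.8% of all genes) and 1 was higher (2.78%, against 18.4%).

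The antigen presentation pathways lay in opposite directions. MHC class I presentation had 3 of 21 genes lower (14.3%, against 3.22% of all genes) and none higher, with a median of −0.19. Leaving out CPEB4-KO mouse 2 gave 14 lower (66.7%, against 16.8%) and 2 higher (9.52%, against 18.4%). H2-Q6 fell from 8.76 ± 0.31 to 8.06 ± 0.13 (adjusted p = 0.014), H2-Q4 by 0.34 and the tapasin-like Tapbpl by 0.20. Genes of the H2-Q cluster are close copies of each other, so reads could be assigned to the wrong copy. MHC class II had 5 of 10 genes higher (50%, against 4.69% of all genes) and none lower, with a median of 0.32. H2-Ab1 stood at 12.02, 12.29, 12.27 and 12.42 in WT and at 12.76, 12.42, 12.71 and 12.64 in CPEB4-KO (difference 0.38, adjusted p = 0.034), and Ciita, the master regulator of class II genes, rose by 0.43 (adjusted p = 0.017). H2-Ab1, H2-Eb1 and H2-Aa overlapped between groups at CPEB4-KO mouse 3, no class II call held in every alternative, and the class II median was already 0.34 before LPS. Cd40, the costimulatory receptor, fell from 13.87 ± 0.17 to 13.32 ± 0.18 (adjusted p = 0.012). Tapbpl and Cd40 lie in the segments described above, on chromosome 6 from 125 to 130 Mb and on chromosome 2 from 165 to 170 Mb.

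Receptors and secreted proteins of the innate response held calls in both directions. Of 20 Siglecs and C-type lectins 5 were lower (25%, against 3.22% of all genes) and 1 higher (5%, near the 4.69% of all genes), with a median of −0.18. Besides Siglece, the inhibitory receptor gene Clec12a and the related Clec4a1 fell by 0.41 and 0.36 (adjusted p = 0.0068 and 0.012) and Clec4e, the receptor Mincle, by 0.23 (adjusted p = 0.034; −0.046 and adjusted p = 0.51 after quantile normalization, and the call lost in 8 of 18 alternatives), whereas Clec1b, the CLEC-2 receptor, rose from 3.25 ± 0.19 to 4.15 ± 0.30 (adjusted p = 0.013). The tetraspanin Cd37, called here as part of the same list, fell from 11.78, 11.66, 11.72 and 11.65 to 11.37, 11.23, 11.27 and 11.31 (adjusted p = 0.0020). Clec12a and Clec1b lie in the chromosome 6 segment from 125 to 130 Mb described above. Clec4a1 and Clec4e lie in the adjoining segment from 120 to 125 Mb, where 9 of 58 tested genes were called (15.5%). Of 13 antimicrobial proteins 4 were lower (30.8%) and 2 higher (15.4%). Lcn2, which withholds iron from bacteria, fell by 0.41 (adjusted p = 0.0060), and the complement genes C1qb and C1qc by 0.31 and 0.36 and the lysozyme gene Lyz1 by 0.65, while Slpi rose. In the phagocyte NADPH oxidase Rac2 fell by 0.35 (adjusted p = 0.0075) and Ncf1 by 0.19 (adjusted p = 0.045) among 7 genes. Of 26 lysosomal genes 2 were lower (7.69%), Atp6v1b2 by 0.23 and Cd68 by 0.25, and of 21 scavenger, mannose and efferocytosis receptors 1 (4.76%), the mannose receptor Mrc1, by 0.24, with no member higher in either list. These calls were lost in 4, 6 and 8 alternatives.

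Matrix metalloproteinases and osteoclast markers were higher where called. Mmp8 stood at 7.80, 7.80, 7.88 and 8.01 in WT and at 8.61, 8.68, 8.47 and 8.66 in CPEB4-KO (difference 0.73, SE 0.07, adjusted p = 8.2e-04), the gelatinase gene Mmp9 rose by 0.62 (adjusted p = 0.0095) and the macrophage elastase gene Mmp12 by 0.58 (adjusted p = 0.019), 3 of 12 tested with none lower. Acp5, the tartrate-resistant acid phosphatase of osteoclasts, rose from 9.04 ± 0.08 to 9.53 ± 0.12 (adjusted p = 0.0044). The calcitonin receptor gene Calcr, another osteoclast marker, rose by 0.68 with overlapping groups and lost its call in 9 alternatives. The summed osteoclast and neutrophil markers given above did not overlap between the genotypes, and Mmp9 and Mmp8 belong to them.

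Tob1 and Tob2 link the CCR4-NOT deadenylase to mRNAs, and TOB proteins also bind members of the CPEB family. Tob1 stood at 7.62, 7.69, 7.59 and 7.57 in WT and at 8.22, 8.22, 8.30 and 8.30 in CPEB4-KO (difference 0.64, SE 0.06, adjusted p = 6.8e-04). Tob2 stood at 10.56, 10.71, 10.56 and 10.75 in WT and at 11.16, 11.29, 11.31 and 11.33 in CPEB4-KO (difference 0.63, SE 0.06, adjusted p = 6.8e-04). Both groups were narrow and separate in all libraries, mouse 2 included. The TTP relatives Zfp36l1 and Zfp36l2 rose by 0.35 and 0.29 (adjusted p = 0.019 and 0.031) and the decapping subunit Dcp1a by 0.31 (adjusted p = 0.044), while Zc3h12d, a relative of the RNase Regnase-1, fell by 0.33 (adjusted p = 0.0074). Zfp36l1, Zfp36l2 and Dcp1a lost their call in 4, 9 and 10 of 18 alternatives, Zfp36l2 in both fits of all 40 libraries. In all, 5 of 31 ARE-binding and decay factors were higher (16.1%, against 4.69% of all genes) and 1 lower (3.23%, against 3.22%), with a median of 0.11. Without mouse 2, 15 were higher (48.4%, against 18.4% of all genes) and 1 lower (3.23%, against 16.8%).

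The study's own lists were used in part, as the copies at hand hold fewer mRNAs than the study's lists, and the study chose them on cells of this kind. Of 1754 tested mRNAs associated with CPEB4 in LPS-treated macrophages 141 were higher (8.04%) and 51 lower (2.91%), with a median difference of 0.063, against 4.69%, 3.22% and 0.0044 over all genes. The study defined these mRNAs by more 3′-UTR reads in CPEB4 precipitates of WT than of Cpeb4 knockout cells. A difference in level between the genotypes can therefore bear on membership. Slc13a3 and Arg1 are among them, and for a gene as low in CPEB4-KO as Slc13a3 membership alone does not show binding. Of 181 TTP targets 10 were higher (5.52%) and 19 lower (10.5%), with a median of −0.038. The TTP median was 0.0081 after quantile normalization, so its sign depended on the scaling. Without CPEB4-KO mouse 2, 650 CPEB4-associated mRNAs were higher (37.1%) and 157 lower (8.95%), against 18.4% and 16.8% of all genes in that fit. Of the TTP targets 44 were then higher (24.3%) and 34 lower (18.8%), so the lower share was near that of all genes and no longer above the higher share.

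**Figure D5:**
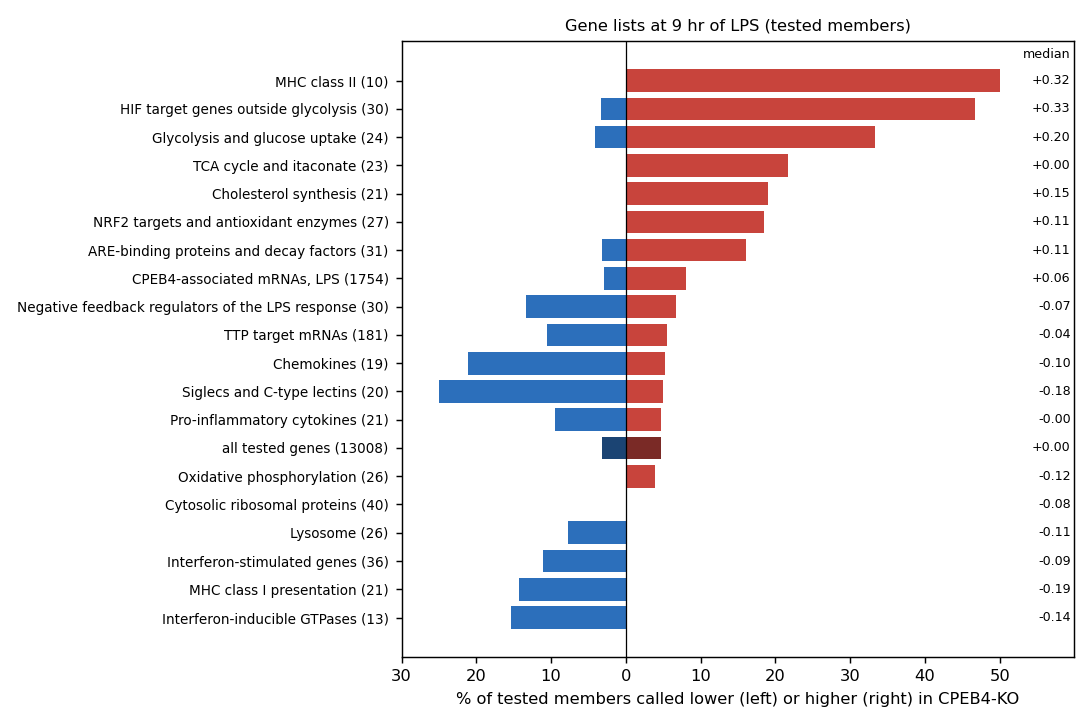
Share of tested members called higher (red, to the right) or lower (blue, to the left) in CPEB4-KO at 9 hr for 19 gene lists and all tested genes (horizontal axis, percent; number tested in brackets). Figures at the right are median rlog differences; MHC class II and HIF targets have the longest bars to the right and Siglecs and C-type lectins the longest to the left.

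Several basic processes held few or no calls with all 8 libraries. None of 40 cytosolic ribosomal protein genes, 25 translation factors, 32 cell cycle genes or 11 STAT and Janus kinase genes was called, and 1 of 26 oxidative phosphorylation genes was higher. Without CPEB4-KO mouse 2, 16 of the 40 ribosomal protein genes and 19 of the 26 oxidative phosphorylation genes were lower, with medians of −0.17 and −0.20, against a background of 16.8% of genes lower in that fit. Lysosomal genes then had 11 of 26 lower and none higher. The calls in these groups therefore turned on that library. Single regulators outside them were called in every alternative, among them the cell cycle inhibitor Cdkn1b (0.28, adjusted p = 0.013) and Irf2, which opposes interferon responses (0.33, adjusted p = 0.0043).

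The change from the untreated state to 9 hr was compared within each mouse, which removes what a mouse carried before LPS. The change differed between genotypes for 95 genes (0.73% of those tested). The difference of changes, CPEB4-KO minus WT, was positive for 68 (0.523%) and negative for 27 (0.208%). A positive value can also be a smaller fall in CPEB4-KO, as for Klra17 below. The count of 95 depended on the libraries, as leaving out any 1 mouse left 2 to 23 genes, 2 without CPEB4-KO mouse 62 and 23 without CPEB4-KO mouse 2. The interaction in one fit of all 40 libraries with the mouse as a block gave 619. Slc13a3 rose by 2.85 ± 0.24 in WT and 1.16 ± 0.16 in CPEB4-KO (difference of changes −1.69, SE 0.13, adjusted p = 0.0028), and Siglece by 2.76 ± 0.12 and 1.42 ± 0.067 (−1.34, adjusted p = 7.1e-04). These 2 genes passed in all 16 alternatives of this test. Arg1 rose by 1.83 ± 0.27 in WT and 3.62 ± 0.46 in CPEB4-KO (1.79, adjusted p = 0.031), which passed in 9 of 16, and Fcor, a regulator of FOXO1, by 0.35 ± 0.17 and 1.57 ± 0.23 (1.22, adjusted p = 0.015), which passed in 14 of 15. Klra17, a gene of the Ly49 receptor family with close copies, fell by 1.77 on the log2 scale in WT and changed by 0.090 in CPEB4-KO (adjusted p = 0.017). At 9 hr it stood at 3.01 ± 0.08 and 2.57 ± 0.14 and was not called (adjusted p = 0.081), after a difference of −2.30 before LPS.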

How the data were processed

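RNA-seq of poly(A) RNA was analysed for 4 WT and 4 CPEB4-KO BMDM cultures at 9 hr, and for the same 8 mice at the other times where stated. The authors aligned reads to mm10 with STAR 2.3.0e, counted them per gene with featureCounts and deposited rlog values of DESeq2 (log2 scale, corrected for library size), per the labels and the study's methods; the annotation release was not given in the sources used here. The deposited log2 values carry no counts, so sequencing depth is not known from them, and precision is given by the spread (median SE of a difference 0.085). 0 value columns were left unused. Columns were assigned to samples by their titles.

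Genes whose rlog averaged 2.32 (log2 of 5) or more over the 8 libraries were tested in R 4.3.3 with the limma 3.58.1 functions lmFit and eBayes (with a trend), with Benjamini-Hochberg adjustment over 13008 genes and statmod 1.5.0 for random effects. The change from untreated was tested on each mouse's difference. Each mouse gave all 5 times; libraries of the same mouse at 9 hr and before LPS deviated together from their group means (r from 0.15 to 0.48 in 8 of 8 mice). p-values measure the spread between these mice. The fits were tested on simulated data.

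The members, gene lists and tests were chosen with earlier results of these data known. Lists were written from general knowledge, except those of CPEB4-associated and TTP target mRNAs, which come from the study. Named were the Cpeb genes, the 12 largest rises and falls with separate groups, up to 6 members of each list by p, genes the study names and the 8 largest rises and falls of the change from untreated. Genes outside the rule are said to be so, and some results are not reported here. Locations are those of GENCODE for GRCm38 (mm10), found for 12717 genes. Alternatives were other filters, eBayes settings, scalings, covariates and random effects, all 40 libraries, and leaving out each mouse.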

Additional observations from a re-analysis of the deposited data

Results flagged for a closer look

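The change from untreated to 9 hr differed between CPEB4-KO and WT for 16 genes of the naming rule. The difference of changes was negative for Slc13a3 (−1.69), Shisa3 (−1.39), Siglece (−1.34), Urah (−1.25), Cxcl9 (−1.10), Lta (−1.05), Scarf2 (−0.85) and Ocstamp (−0.77). It was positive for Klra17 (1.86), Arg1 (1.79), Dennd3 (1.35), Tnfaip8l3 (1.34), Acpp (1.27), Deptor (1.24), Igf2bp1 (1.22) and Fcor (1.22). Slc13a3 and Siglece passed in 16 of 16 alternatives, while Ocstamp and Deptor passed in 2 of 15. The cause of these differences was not tested.

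A library far from the other 3 of its group was seen in 17 of 320 groups of 4 checked, 7 in CPEB4-KO and 10 in WT, of which 2 were CPEB4-KO mouse 2. Chance gives about 1 in 20 such groups. In WT mouse 88 these were Cpeb4 (9.41), Map3k5 (8.81), Ncf1 (14.34), Bcl2a1a (7.39) and Gapdh (10.25). In WT mouse 69 they were Cxcl2 (13.33), Nfkbib (11.82), Cd40 (14.12) and Bcl2l1 (12.82), and in WT mouse 25 Nlrp1b (7.75). In CPEB4-KO they were Cxcl9 in mouse 55 (9.95), Acpp and Spint1 in mouse 3 (7.87 and 6.56), Tnf and Casp4 in mouse 62 (13.61 and 11.83) and Ptger2 and Gapdh in mouse 2 (8.18 and 10.01).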

How the results depend on the processing

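With all 40 libraries in one fit, 2293 genes were called at 9 hr without and 2395 with the replicate block of mice; the genotypes share no mouse, so no paired analysis between them was possible at one time. The change from untreated, which is paired within mice, gave 230 genes without and 619 with the replicate block, and the genes of the hand-written lists called were 276 and 289, against 150. Batch as a covariate gave 1781 genes, and cage as a random effect 4664 (420 in the lists), with an estimated correlation within cages of −0.75. eBayes without trend left 700 genes, and 98 in the lists. For the change from untreated (95 genes), the setting without a filter left 19, robust eBayes 28, batch as a covariate 10 and quantile normalization 42. Leaving out 1 mouse gave 387 to 4578 genes at 9 hr, 67 to 401 in the lists, 79 to 146 of the named genes (against 141), and 2 to 23 for the change. Cpeb4 kept its sign in each alternative run (−0.48 to −0.012 leaving out 1 mouse), and was called only with cage as a random effect (adjusted p = 0.019). Cxcl2 (−0.01; −0.086 to 0.14 leaving out 1 mouse) turned positive with cage as a random effect (0.17), with quantile normalization (0.045) and without WT mouse 69 (0.14), CPEB4-KO mouse 55 (0.028) or CPEB4-KO mouse 62 (0.040). Il1a (0.02; −0.28 to 0.18 leaving out 1 mouse) turned negative without WT mouse 88 (−0.11) or CPEB4-KO mouse 3 (−0.28). Neither was called. The cause of these shifts was not tested, apart from the smaller number of libraries where a mouse is left out. Sequencing depth is not known from rlog values.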
